A study of Bos taurus with 30 samples.

Results

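Accessible chromatin of bovine germinal vesicle-stage (GV) oocytes was compared with that of 2-cell embryos through the ATAC-seq peak lists of 6 libraries, 3 for each stage, out of 30 libraries in the series. Libraries were chosen by their labels alone, as the GV stage and as the 2-cell stage of the control culture. The other 24 libraries, of 8 groups, were used only at the regions found in these 6. They served as a readout and to class regions by how widely they recurred. In all, 8704 peaks of 2-cell embryos and 127406 peaks of GV oocytes were examined.

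GV oocytes were bovine oocytes aspirated from follicles and collected before maturation. The 2-cell embryos were produced in vitro from matured oocytes fertilized with thawed bull semen, and were collected 30 to 32 h after insemination. Neither group had received α-amanitin, the inhibitor of RNA polymerase II that was added at 50 µg/ml to the cultures named transcription blocked embryos (TBE). Each library came from a pool of at least 500 cells stripped of the zona pellucida, and the 3 libraries of a stage came from separate collections. Breed and age of the oocyte donors are not given in the sources used here, and a pool is an average over its cells.

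A GV oocyte is paused in meiotic prophase with its nucleus still enclosed, and near the end of its growth it falls largely silent in transcription. After maturation and fertilization the maternal and the sperm-derived genomes are repackaged together, and the first cleavages run mainly on stored maternal RNA and protein. In cattle the major wave of embryonic genome activation follows some cleavages later, so that the 2-cell embryo lies between the silent oocyte and the activated embryo. ATAC-seq marks open DNA by inserting sequencing adapters with a transposase. A broad peak is a stretch of the genome where the tags of a library exceed the local background of that same library, so that a peak list shows where accessibility stands out and not how open the genome is as a whole.

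The lists of GV oocytes held 40132, 42596 and 44678 peaks (replicates 1 to 3), and those of 2-cell embryos 1002, 1262 and 6440. The oocyte lists covered 20.7, 20.5 and 24.2 Mb, and the 2-cell lists 0.444, 0.474 and 2.92 Mb. Every oocyte library lay above every 2-cell library on both counts, and 2-cell replicate 3 stood apart from the other 2-cell libraries. The mean number of peaks was 14.6 times and the mean covered length 17.01 times as high in oocytes (exact two-sided permutation tests, p = 0.1 each, which is the smallest p that 3 against 3 libraries allow). Without 2-cell replicate 3 these ratios were 37.5 and 47.4.

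Sequencing depth differed between libraries, and its part in these ratios was not tested. The background level of a library, which is the number of tags expected by chance over a position and is proportional to its depth, was 0.247, 0.248 and 0.507 in GV oocytes and at most 0.220, then 0.123 and 0.718, in 2-cell embryos. The value of 2-cell replicate 2 rests on only 3 peaks. Replicate 3 of the 2-cell stage had a higher level than each oocyte library, and the oocyte lists held 6.23 to 6.94 times as many peaks as its list and covered 7.00 to 8.26 times its length. The other 2-cell libraries had less background than any oocyte library, so for them few reads and few accessible sites cannot be told apart.

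The lists were also counted above 1 common level of evidence, since MACS2 sets its limit on q, which falls short at a given p when few positions are enriched. The lowest mean −log10 p in a list was 3.09 to 3.14 in oocytes and 3.64 to 4.33 in 2-cell embryos, so the weakest 2-cell peaks carried more evidence than the weakest oocyte peaks. Oocyte lists held 15212, 13743 and 12574 peaks with a mean −log10 p of at least 6, against 503, 562 and 1269 in 2-cell lists. With a mean −log10 p of at least 10 the counts were 3737, 2636 and 2549 against 204, 140 and 271. The ratio of means was 17.8 at the first level and 14.5 at the second (exact permutation tests, p = 0.1 each). Among peaks with a −log10 q of 3 or more the ratios were larger, at 32.8 for peaks and 30.6 for covered length (exact permutation tests, p = 0.1 each).

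**Figure D1:**
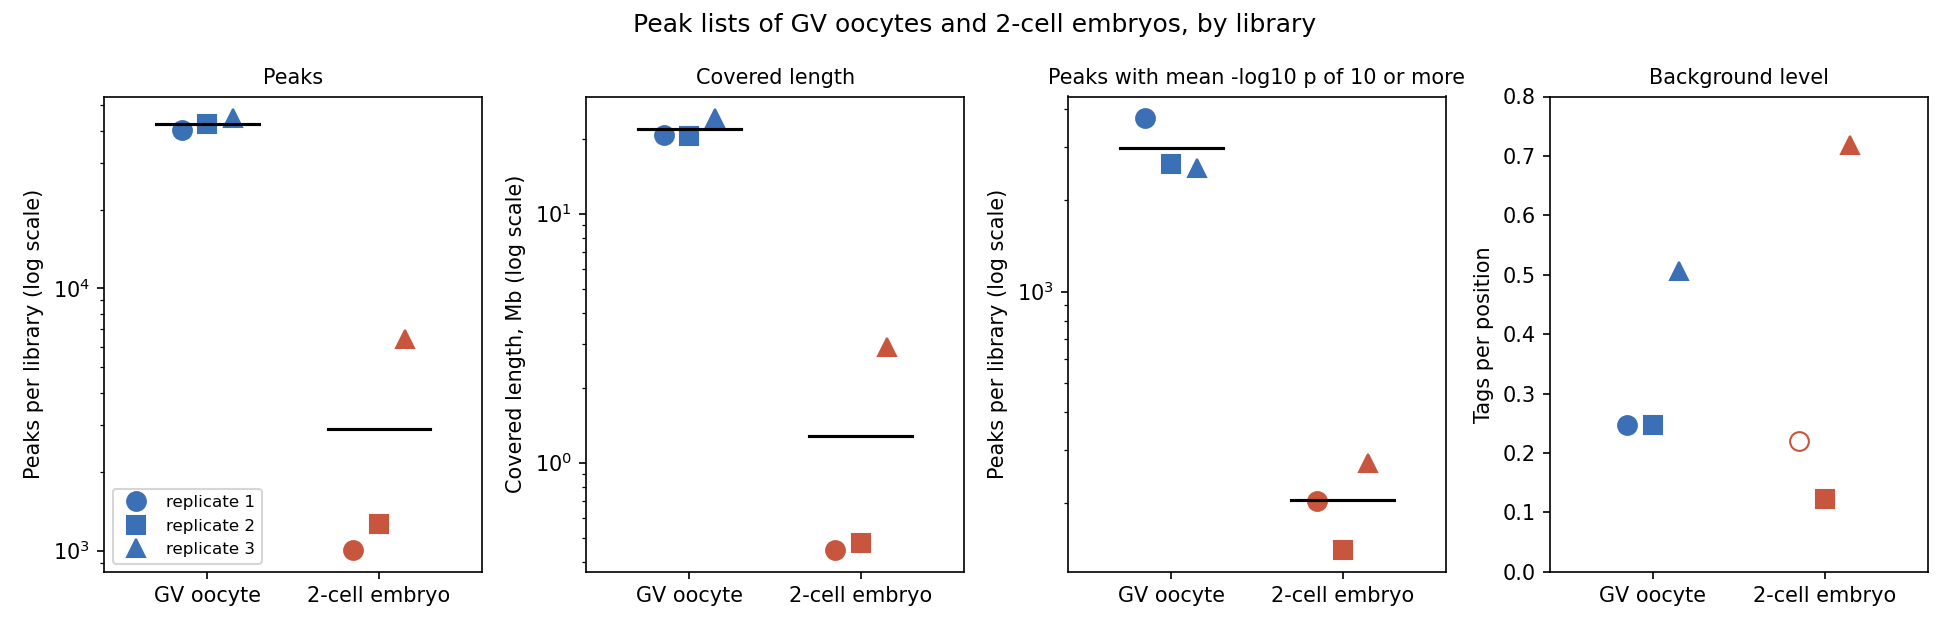
Peak lists of GV oocytes and 2-cell embryos, 1 symbol per library and a line at the group mean (n = 3). The panels show the number of peaks, the covered length in Mb and the peaks with a mean −log10 p of at least 10, each on a log scale, and the background level in tags per position on a linear scale from 0, without means and with an open circle for an upper limit. Oocyte libraries lie above all 2-cell libraries in the first 3 panels, while 2-cell replicate 3 has the highest background level of the 6, at 0.718.

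2-cell peaks were narrower than oocyte peaks, while the stages overlapped in median fold enrichment. That value is the tag pileup over the local background, with a constant added to both, averaged over the peak. Where the background is low, as in these libraries, the added constant makes the value depend on depth. No comparison of fold enrichment between libraries was adjusted for this. Median widths were 381, 342 and 416 bp in GV oocytes and 277, 207 and 317.5 bp in 2-cell embryos, with no overlap between the stages (difference of means −112.5 bp, exact permutation test, p = 0.1). They were 219, 243 and 290 bp in 2-cell TBE, 294, 241 and 229 bp in 4-cell TBE and 377, 338 and 262 bp in 4-cell embryos. Narrow medians were thus not particular to the control 2-cell lists, and the part of list length and depth was not tested. The share of peaks of exactly 200 bp, the length to which tags were extended, was 13.6% to 17.9% in oocyte lists and 21.1% to 46.9% in 2-cell lists. Median fold enrichments were 4.11, 4.01 and 3.80 in oocytes and 4.46, 4.21 and 3.75 in 2-cell embryos, with ranges that overlapped (difference of means 0.166, exact permutation test, p = 0.5). This depended on the peaks taken, since the stages did not overlap with a difference of 0.750 at a −log10 q of 3 or more, nor with one of −3.03 for equal numbers of the strongest peaks (exact permutation tests, p = 0.1 each), where the width difference was −218 bp.

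The strongest peak of each list was about as high at both stages, at a fold enrichment of 18.2 to 19.2 in oocytes and 18.6 to 18.9 in 2-cell embryos. Peaks that reached an enrichment of 8 or more numbered 578, 423 and 190 in oocyte lists and 76, 74 and 101 in 2-cell lists. The ratio of means was 4.75 for these tall peaks (exact permutation test, p = 0.1), against 14.6 for all peaks. The ratio for tall peaks depended on whether scaffolds not assigned to a chromosome were counted. On placed chromosomes alone, tall peaks numbered 532, 380 and 150 in oocyte lists and 44, 37 and 36 in 2-cell lists. There the ratio of means was 9.08 (exact permutation test, p = 0.1), against 16.1 for all placed peaks. Median −log10 q was lower in 2-cell lists, at 2.06, 1.92 and 1.43 against 2.75, 2.52 and 2.28 (exact permutation test, p = 0.1), whereas the ranges of median −log10 p overlapped, at 4.60 to 6.01 against 4.79 to 5.31 (exact permutation test, p = 0.5).

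The few 2-cell peaks were not spread over the assembly like those of oocytes. Of the peaks of a library, 1.74%, 1.83% and 1.75% lay on unplaced scaffolds in GV oocytes, and 22.4%, 18.9% and 7.14% in 2-cell embryos. Unplaced scaffolds are pieces of the assembly that could not be assigned to a chromosome, and they are often rich in repeated sequence. The stages did not overlap (difference of means 14.4 percentage points, exact permutation test, p = 0.1). The difference was 31.5 points among peaks with a −log10 p of 6 or more and 42.3 points with a −log10 q of 3 or more. With equal numbers of the strongest peaks it was 18.7 points (exact permutation test, p = 0.1). The share of the X chromosome did not show such a gap, with 2.68% to 3.19% of peaks in oocytes and 2.38% to 3.59% in 2-cell embryos (exact permutation test, p = 0.8). The 2-cell TBE lists, of 925, 8118 and 11083 peaks, had 19.5%, 3.18% and 3.55% of their peaks on unplaced scaffolds. As in control 2-cell embryos, the shortest list had the highest share, and the part of list length in the stage difference was not tested.

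In counts, oocyte libraries had 700, 778 and 784 peaks on unplaced scaffolds, and 2-cell libraries 224, 239 and 460. On chromosomes 1 to 29 and X the counts were 39432, 41818 and 43894 against 778, 1023 and 5980. The oocyte mean was therefore 2.45 times the 2-cell mean on unplaced scaffolds and 16.1 times on placed chromosomes, or 3.26 and 46.3 times without 2-cell replicate 3. Against that deepest 2-cell library, each oocyte library had 1.52 to 1.704 times as many unplaced and 6.59 to 7.34 times as many placed peaks.

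**Figure D2:**
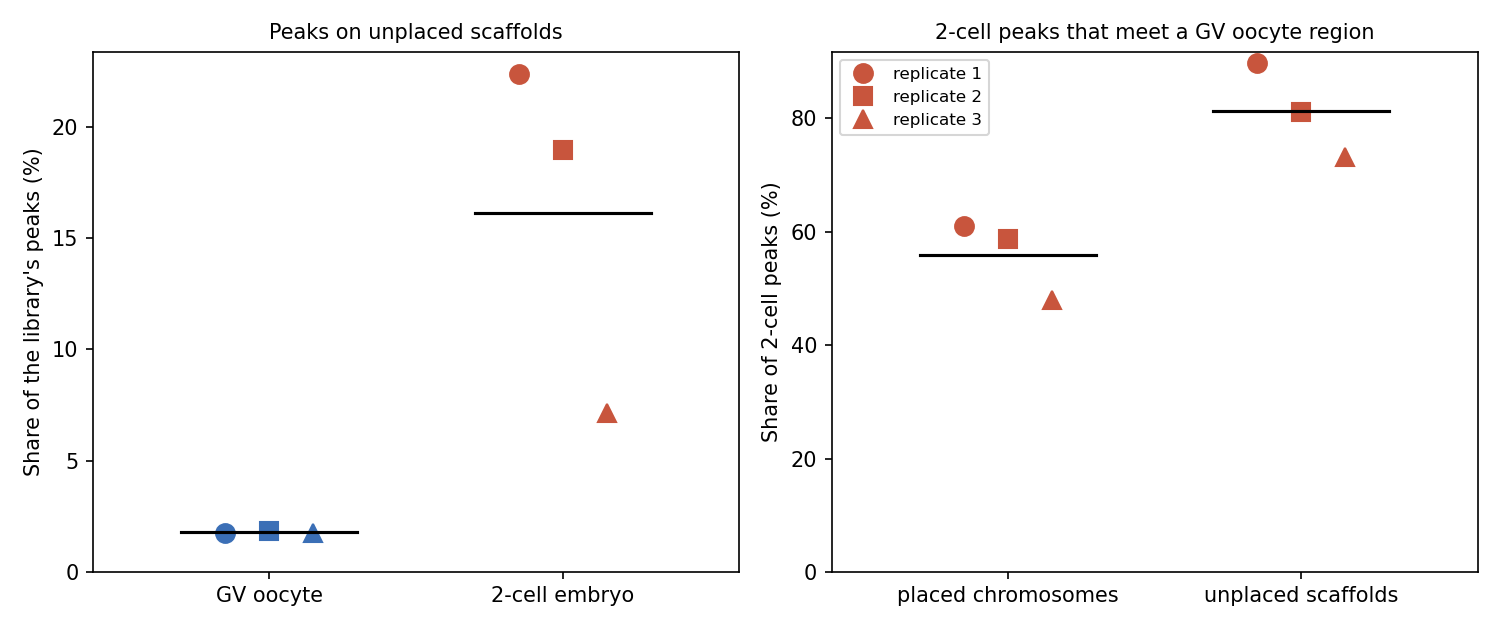
Share of each library's peaks on unplaced scaffolds (left) and share of 2-cell peaks that meet a GV oocyte region on placed chromosomes and on unplaced scaffolds (right), in percent, with 1 symbol per library and a line at the mean (n = 3). Oocyte libraries lie between 1.74% and 1.83% on the left, below all 2-cell libraries, and in each 2-cell library the unplaced peaks meet an oocyte region more often than the placed ones.

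Peaks of 2-cell libraries met oocyte regions far more often than oocyte peaks met 2-cell regions. Regions of a stage were defined as merged peaks present in at least 2 of its 3 libraries, which gave 33347 GV oocyte regions and 677 2-cell regions. Of the peaks of 2-cell libraries, 67.5%, 62.9% and 49.8% met an oocyte region by at least 1 bp. Of the peaks of oocyte libraries, 1.56%, 1.45% and 1.40% met a 2-cell region. The shares were 60.1% ± 9.16 and 1.47% ± 0.0831 (mean ± SD, n = 3 libraries each), without overlap (exact permutation test, p = 0.1). A peak of any single oocyte library was met by 74.2%, 68.9% and 57.5% of 2-cell peaks. A peak of any single 2-cell library was met by 9.25%, 8.55% and 8.47% of oocyte peaks. The list sizes set what these shares can be, since at most a small part of the oocyte regions can be met by a list as short as that of a 2-cell library. When each library was reduced to as many of its strongest peaks by −log10 p as the shortest list holds, 33.9% of 2-cell regions met an oocyte region and the gap between the shares was 2.30 points, with overlap (exact permutation test, p = 0.4).

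The 2-cell peaks with the strongest evidence nearly all met an oocyte region, and the weakest did so far less. With a mean −log10 q below 1.3, 50.0%, 46.3% and 30.9% of the peaks of the 2-cell libraries met an oocyte region, and with more than 10, 90.8%, 100.0% and 98.1% did. Between these classes the share rose at each step in replicates 2 and 3, and in replicate 1 it was level within 2 pairs of neighbouring classes, at 63.0% and 62.8% and at 79.5% and 77.5%. The same peaks met another 2-cell library in 12.3%, 15.6% and 1.91% of cases in the weakest class and in 92.0%, 100.0% and 93.6% in the strongest. Weak 2-cell peaks thus overlapped oocyte regions more often than they overlapped the other, shorter 2-cell lists, and the lengths of the lists differ too much to compare these shares directly. Peaks that met neither another 2-cell library nor a peak of any single oocyte library made up 25.0%, 30.0% and 42.3% of the lists.

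Likeness of whole lists, measured by the Jaccard index (shared over joint base pairs), was 0.311 between GV oocyte libraries, 0.119 between 2-cell libraries and 0.0262 between the stages. Within-stage pairs exceeded between-stage pairs by 0.189 (exact permutation test over all relabellings of the 6 libraries, counting only equal or larger differences, p = 0.1). By the overlap coefficient, which divides the shared length by the shorter list, the values were 0.502, 0.452 and 0.566. On that measure the difference within minus between stages was −0.0885 (same exact permutation test, p = 1). Since that test counts only equal or larger differences, this p means that no relabelling gave a lower value. It does not mean that the stages were alike. Pairs of an oocyte list with 2-cell replicate 3 had 0.393 to 0.441, below the 0.496 to 0.513 of the oocyte pairs, while the pairs with the shorter 2-cell lists lay above that range. With a −log10 q of 3 or more the Jaccard difference was 0.353, and with a −log10 p of 6 or more 0.304.

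Of the 677 2-cell regions, 256 were present in all 3 2-cell libraries. Among the other 421, 23 were in libraries 1 and 2, 142 in 1 and 3, and 256 in 2 and 3, so that the deepest library took part in all but 23 of them. An oocyte region lay under 630 of the 677 (93.1%, exact Clopper-Pearson 95% interval 90.9% to 94.9%). Intervals of this kind cover counting error only, and regions of 1 list are not independent replicates. Other groups had a peak in at least 2 of 3 libraries at many of the 677 as well. The counts were 649 in 4-cell embryos (95.9%), 617 in 8-cell embryos (91.1%), 545 in morula, 632 in ICM and 519 in ESC. Overlap this frequent was thus not particular to the oocyte, though list lengths differ. Of the 33347 oocyte regions, 628 (1.88%, interval 1.74% to 2.03%) continued as a 2-cell region, and 3757 (11.3%) had a peak in at least 1 2-cell library. Without 2-cell replicate 3 there were 282 2-cell regions, 269 of them on an oocyte region, and 264 oocyte regions continued (0.792%).

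All 3 oocyte libraries had a peak at 573 of the 677 2-cell regions (84.6%), 2 had one at 54, 1 had one at 30 and none at 20. Among all oocyte regions, which by definition have a peak in at least 2 oocyte libraries, 19661 of 33347 (59.0%) had one in all 3. Taken singly, the 2-cell libraries had a peak at 666, 787 and 3200 oocyte regions, or 2.00%, 2.36% and 9.60%. In the other direction 16393 oocyte regions had a peak in all 3 oocyte libraries and in no 2-cell library.

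Continuing 2-cell regions sat centrally within their oocyte region and were mostly narrower. Their median width was 496 bp against 849.5 bp for the oocyte region they met, and the median ratio of widths within a pair was 0.871. Centres of the pair were 48.8 bp apart in the median, 478 of 630 were narrower than the oocyte region, and 372 lay wholly inside it. For comparison, the median width of all oocyte regions was 700 bp and of all 2-cell regions 482 bp.

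Continued regions were found on each of the 30 placed chromosomes, with shares between 0.531% of the oocyte regions on chromosome 20 (4 of 753) and 2.14% on chromosome 4 (23 of 1075). On unplaced scaffolds the share was higher, with 211 of 656 oocyte regions continued (32.2%, interval 28.6% to 35.9%) against 417 of 32691 placed ones (1.28%, interval 1.16% to 1.40%). Each 2-cell library showed this order. Replicates 1, 2 and 3 met 29.6%, 28.8% and 50.5% of the unplaced and 1.44%, 1.83% and 8.78% of the placed oocyte regions. In total 237 of the 677 2-cell regions were unplaced, and they were spread over 156 scaffolds, of which 146 also carried an oocyte region.

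Many of the 2-cell regions were accessible in every group of the series. A peak was present in each of the 24 libraries of the other 8 groups at 152 of the 677 2-cell regions (22.5%) and at 230 of the 33347 oocyte regions (0.69%). Of those 230 ubiquitous oocyte regions, 153 continued at the 2-cell stage (66.5%, interval 60.0% to 72.6%), against 475 of the other 33117 (1.43%). There were 112 2-cell regions with a peak in all 30 libraries.

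The share of oocyte regions seen at the 2-cell stage followed how widely they recurred. None of the 1266 oocyte regions without a peak in the other 24 libraries continued, and 8 of 10378 did with a peak in 1 to 8 of them, 73 of 11148 with 9 to 16, 394 of 10325 with 17 to 23, and 153 of 230 with all 24. In 2-cell replicate 3 alone the share of oocyte regions met rose through the same classes from 0.395% to 1.61%, 4.86%, 22.0% and 93.0%. Deep libraries are part of that count of other libraries, as are the 2-cell TBE libraries, which are of the same stage as the 2-cell lists. Median oocyte fold enrichment rose along the classes as well, from 3.87 and 3.83 to 4.13, 4.97 and 6.27. The part of each in this order was not tested.

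**Figure D3:**
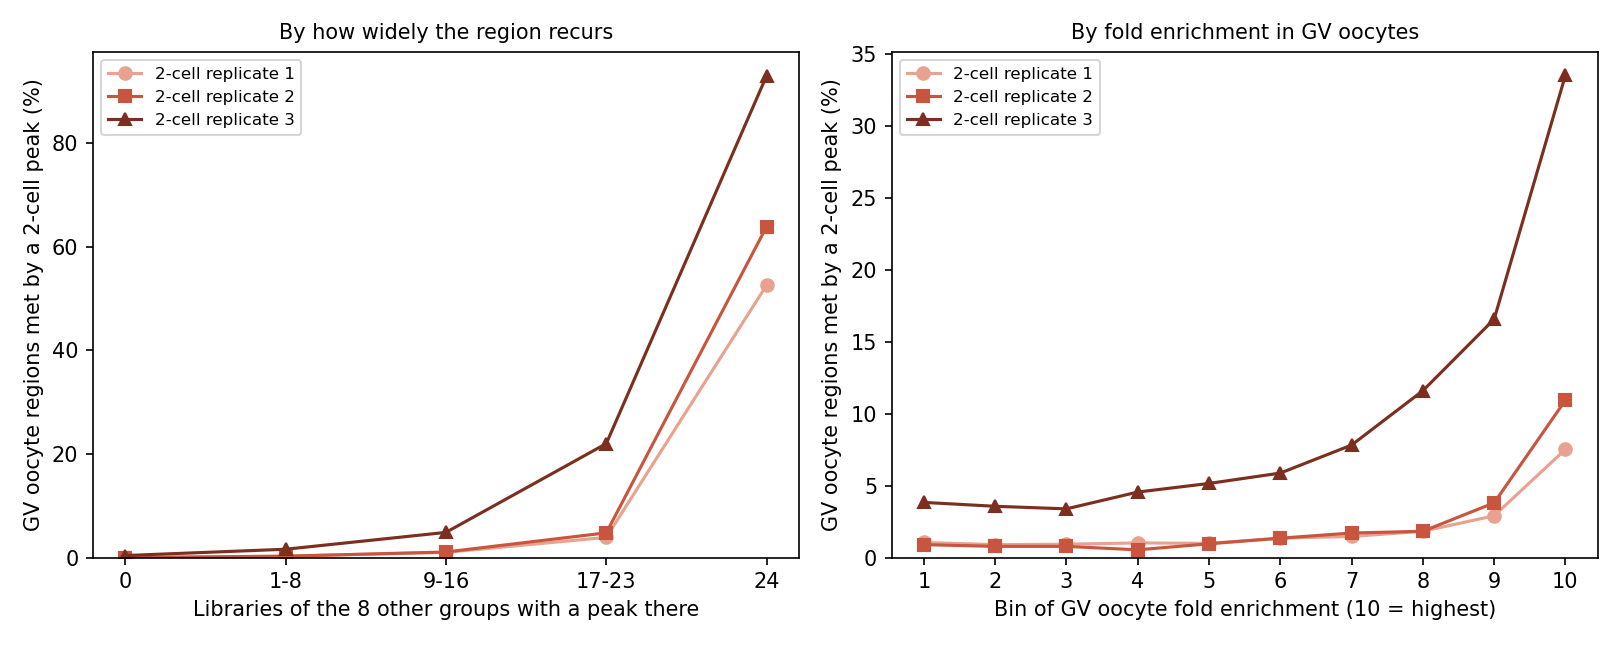
Share of GV oocyte regions met by a peak of each 2-cell library, in percent, by the number of libraries of the 8 other groups with a peak there (left; 1266, 10378, 11148, 10325 and 230 regions) and by mean fold enrichment in GV oocytes in 10 bins of equal size (right; 10 is the highest). In 2-cell replicate 3 the share rises from 0.395% to 93.0% on the left and from 3.84% to 33.6% on the right.

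The regions outside both of these classes, on placed chromosomes and in fewer than 24 of the other libraries, made up 328 of the 677 2-cell regions. Of these 328, 305 (93.0%) lay on an oocyte region, a share close to that of all 2-cell regions. Only 43 of them were in all 3 2-cell libraries, and 262 had a peak in all 3 8-cell and all 3 morula libraries. The last count was not made for all 677 2-cell regions or for oocyte regions, so it is given as a value only. Of the 32503 oocyte regions of the same kind, 304 (0.935%) continued.

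Continued regions were among the stronger and wider sites of the oocyte. In the 3 oocyte libraries the median fold enrichment of continued regions was 6.15, 5.70 and 5.62, against 4.41, 4.28 and 4.06 for other oocyte regions. The ratio of medians was 1.37 ± 0.033 (mean ± SD, n = 3 libraries, above 1 in each; exact sign-flip permutation test, p = 0.25, the smallest that 3 libraries allow). Median peak widths there were 632.5, 610.5 and 695.5 bp against 454, 399 and 483.5 bp, a ratio of 1.45 ± 0.070 (same exact test, p = 0.25). Among peaks with a −log10 q of 3 or more the ratio of widths was 1.13 and no longer above 1 in each library (exact sign-flip permutation test, p = 0.5). Median −log10 q was 8.04, 6.47 and 7.40 against 3.27, 2.93 and 2.80.

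Strength in oocytes was graded with the number of 2-cell libraries that had a peak. In GV oocyte replicate 1 the median fold enrichment was 4.32 for oocyte regions in no 2-cell library, 5.34 for those in 1, 6.02 in 2 and 6.45 in 3. The other oocyte libraries gave the same order, from 4.21 to 6.04 in replicate 2 and from 3.99 to 6.17 in replicate 3. Sorted by oocyte fold enrichment into 10 bins of equal size, 0.72% of the regions of the lowest bin continued and 9.84% of the highest. The share was not ordered throughout, since it was 0.57%, 0.42% and 0.27% in the next 3 bins and rose from the fifth bin on.

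A gap between the end bins was also present among placed regions in fewer than 24 of the other libraries, where 0.246% of the lowest and 4.95% of the highest bin continued, and 2-cell replicate 3 met 3.05% and 28.7%. Of the 100 strongest oocyte regions, 66 continued and 83 had a peak in at least 1 2-cell library. Of the 1000 strongest, 166 continued and 492 had such a peak. Strong oocyte sites without any 2-cell peak were therefore common, which includes the regions described next.

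The 5 strongest regions that had a peak in all oocyte libraries and in no 2-cell library were on placed chromosomes (ARS-UCD1.2). The first, at chr5:84799071-84799647, had fold enrichments of 9.20, 9.06 and 9.02 in the oocyte libraries. At chrX:4184007-4184604 the values were 8.43, 9.76 and 8.69, and at chr15:49642953-49643519 they were 8.11, 9.32 and 9.42. The regions were chosen by these values, so their height is no further result. For scale, the median fold enrichment of the oocyte lists was 3.80 to 4.11.

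The remaining ones were at chr16:44050517-44050969, with 10.4, 8.73 and 7.40, and at chr25:26868939-26869549, with 8.84, 8.90 and 8.63. All 5 regions had a peak in each 8-cell, morula, ICM and ESC library, and 4 of the 5 in each 4-cell library, the exception being chr16:44050517-44050969 with 2. In embryos of the 2-cell stage under α-amanitin, 2, 0, 2, 1 and 3 of the 3 TBE libraries had a peak there, in the order given. For 4 of the 5 regions, absence from the 3 control 2-cell lists was thus not absence from every list of that stage.

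The strongest 2-cell regions were at the same time among the tallest of the oocyte. By mean fold enrichment over the 3 2-cell libraries, 5 of the top 10 were on unplaced scaffolds, 9 of the 10 had a peak in all 24 other libraries, and all 10 had one in each oocyte library. At chr17:5546506-5546984, the highest, fold enrichment was 18.6, 18.2 and 17.1 in 2-cell libraries and 18.0, 17.2 and 17.6 in oocyte libraries (18.0 ± 0.790 and 17.6 ± 0.395, mean ± SD, n = 3). At chr9:20771812-20772094 it was 18.1, 18.4 and 14.5 in 2-cell and 18.6, 15.1 and 17.3 in oocyte libraries. In both cases the ranges of the stages overlapped.

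At chr2:40600375-40600712 the 2-cell values were 18.2, 18.6 and 13.5 and the oocyte values 19.1, 16.7 and 15.6, again with overlap. At chr1:6042800-6043215 they were 16.4, 14.2 and 15.9 against 17.3, 18.0 and 18.0, and at chr6:109018600-109018951 16.2, 13.8 and 15.6 against 17.03, 17.3 and 17.4. In the last 2 regions all oocyte values lay above all 2-cell values, as in 16 of the 118 placed regions with a peak in all 6 libraries. Genes near these positions were not analysed here.

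The widest placed regions shared by all 6 libraries had low fold enrichment over kilobases. The widest of them, at chr27:6219566-6225712 (6147 bp), had fold enrichments of 1.81, 1.87 and 1.79 in oocytes and 2.03, 2.104 and 1.90 in 2-cell embryos. At chr16:825816-829737 the values were 2.12, 2.18 and 2.23 against 2.23, 2.08 and 2.18, and at chr23:20072-23836 2.96, 3.21 and 2.63 against 3.45, 3.25 and 2.51. Each of these 3 had a peak in all 30 libraries. Among the 5 widest, an unplaced region of 3819 bp had 3.33 to 3.61 in oocytes and 3.48 to 5.15 in 2-cell embryos. Another unplaced one, of 3725 bp, had 3.07 to 3.97 and 2.55 to 4.07. In total 14 of the 2-cell regions were wider than 3000 bp, all 14 had a peak in all 6 libraries, and 12 in all 24 others, while 27 oocyte regions were as wide.

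Where both stages had a peak in all 3 libraries, fold enrichment was of similar size. There were 231 such regions, and their median fold enrichment was 6.44, 6.06 and 6.17 in the oocyte libraries and 6.11, 5.82 and 5.89 in the 2-cell libraries. Within regions the median ratio of 2-cell over oocyte mean was 1.01, with an interquartile range of 0.938 to 1.09 and extremes of 0.512 and 1.93. Since a region had to pass the peak limit in all 6 libraries to be among these, they say nothing of regions that fell below it.

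In 15 of the 231 (6.49%) all 2-cell values lay above all oocyte values, and in 23 (9.96%) below. With 3 against 3 libraries there are only 20 arrangements, so separations of this kind can arise by chance. On placed chromosomes the counts were 3 above and 16 below of 118, and on unplaced scaffolds 12 above and 7 below of 113. Across the 231 regions the log2 values of the stages had a Pearson correlation of 0.914, which describes regions read in the same 6 libraries and not independent samples. Among the 42 placed regions in fewer than 24 of the other libraries it was 0.767.

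**Figure D4:**
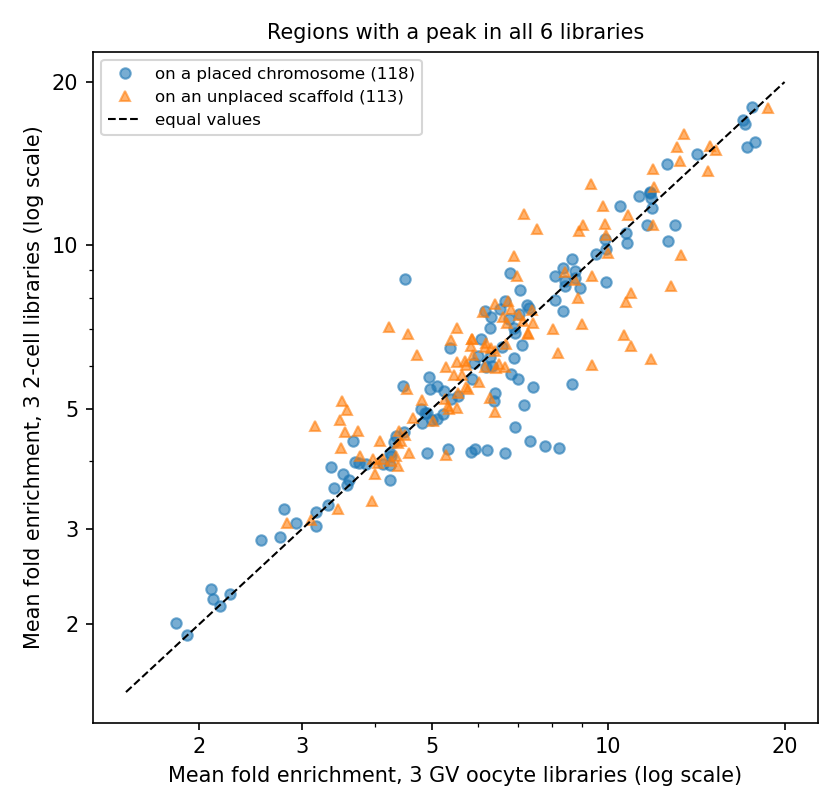
Mean fold enrichment over the 3 2-cell libraries against that over the 3 GV oocyte libraries, both on log scales, for the 231 regions with a peak in all 6 libraries, 118 on placed chromosomes and 113 on unplaced scaffolds. Points scatter about the dashed line of equal values, with a median ratio of 1.01 and extremes of 0.512 and 1.93.

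Few 2-cell regions lacked an oocyte counterpart. Of the 47 2-cell regions on no oocyte region, 27 had a peak in at least 1 oocyte library, which leaves 20 with none. Of these 20, 17 were on placed chromosomes and 1 was present in all 3 2-cell libraries. That one, on an unplaced scaffold, had fold enrichments of 6.74, 4.71 and 7.63.

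The placed regions among the first 5 were each called in 2 2-cell libraries. At chrX:17920059-17920302 fold enrichment was 8.04 in replicate 1 and 4.82 in replicate 3, and the region had a peak in no 4-cell library, 1 8-cell library, 2 morula and 3 ICM libraries. At chr15:50728649-50728929 it was 6.89 and 4.23 in the same replicates, with a peak in all 3 4-cell and all 3 8-cell libraries, and in no morula or ICM library. At chr25:28248294-28248568 it was 6.77 in replicate 1 and 4.22 in replicate 2, with a peak in no 4- or 8-cell library, 2 morula, 2 ICM and 3 ESC libraries.

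All 20 regions without an oocyte peak had a peak in some other library, between 1 and 23 of the 24. A peak in at least 2 of 3 libraries was present at 10 of the 20 in 4-cell embryos, 12 in 8-cell embryos, 11 in morula, 10 in ICM and 8 in ESC. For the 630 continuing regions the counts were 618, 594, 528, 603 and 505. With 20 regions, and with definitions that rest on absence from 3 lists, these counts are given as values only.

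Embryos of the next stage carried the continued regions far more often than other oocyte regions. In the 4-cell libraries 99.4%, 97.0% and 90.8% of continued regions had a peak, against 56.7%, 31.7% and 20.7% of the other oocyte regions. The means were 95.7% ± 4.44 and 36.3% ± 18.4, and the difference was 59.4 ± 14.6 percentage points (mean ± SD, n = 3 4-cell libraries, of 1 sign in all 3; exact sign-flip permutation test, p = 0.25, the smallest possible). When the oocyte and 2-cell lists were reduced to equal numbers of their strongest peaks, the difference was 13.2 points. The classes were not compared at equal oocyte fold enrichment, which was higher in continued regions, and its part in the difference was not tested. Among placed regions in fewer than 24 of the other libraries the shares were 98.7%, 96.1% and 87.5% against 56.4%, 31.4% and 20.5%. The 4-cell libraries are among the 24 that define this class.

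The share at the 4-cell stage was graded by the number of 2-cell libraries with a peak, with means of 32.3%, 74.2%, 93.0% and 99.3% for 0, 1, 2 and 3 libraries. Oocyte regions absent from all 2-cell lists were thus present in a 4-cell list in 53.0%, 27.1% and 16.9% of cases (replicates 1 to 3). At later stages the gap between continued and other regions was smaller, with 92.5% ± 3.35 against 62.5% ± 2.00 in 8-cell embryos, 83.8% ± 3.32 against 70.2% ± 5.31 in morula, 94.6% ± 1.52 against 61.8% ± 4.81 in ICM and 77.8% ± 8.61 against 55.6% ± 13.9 in ESC (n = 3 libraries each). Continued regions were ahead in each of these 12 libraries, and the change of the gap from stage to stage was not tested.

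**Figure D5:**
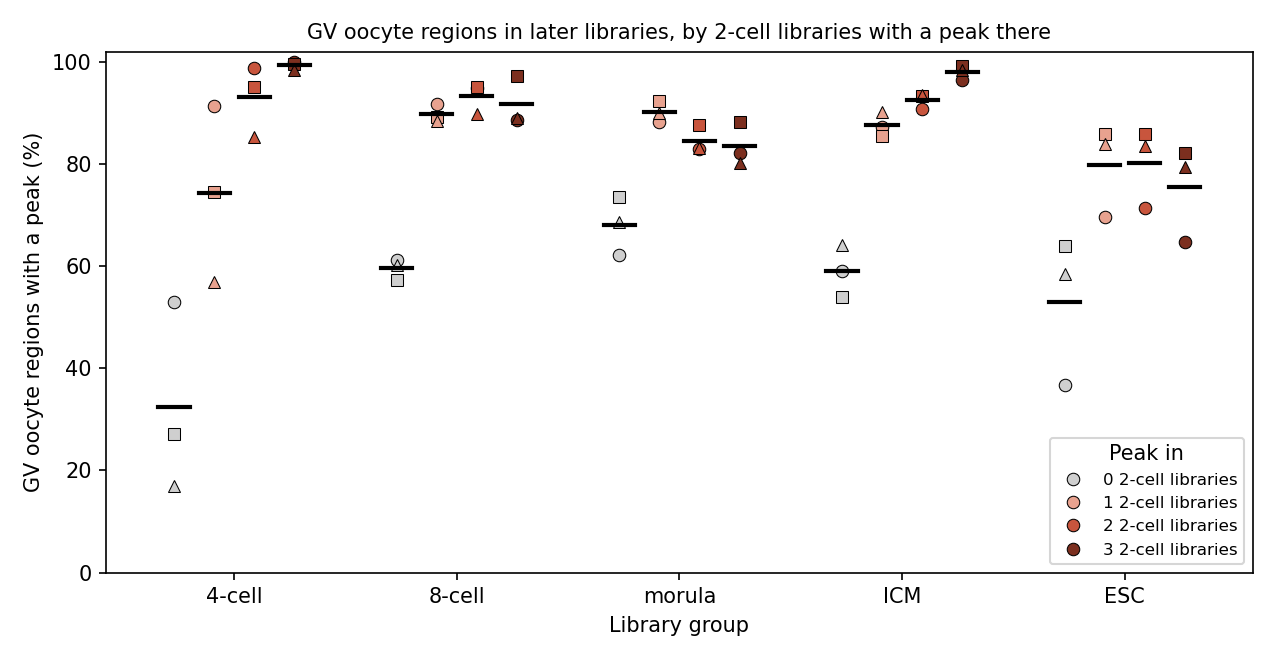
Share of GV oocyte regions with a peak in each library of 5 later groups, in percent, split by whether 0, 1, 2 or 3 2-cell libraries had a peak there (29590, 3108, 402 and 247 regions). Symbols are libraries (circle, square and triangle for replicates 1, 2 and 3) and lines are means. In 4-cell embryos the means climb from 32.3% to 99.3%, while in 8-cell embryos, morula and ESC the classes with 1 to 3 libraries show no such climb.

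The continued regions on unplaced scaffolds, ubiquitous ones included, had lower shares from the 8-cell stage on than the placed ones, with the lowest values in morula and ESC. In 4-cell embryos 95.7% ± 4.81 of them had a peak and in 8-cell embryos 83.3% ± 9.05, then 60.2% ± 7.08 in morula, 89.9% ± 3.97 in ICM and 53.2% ± 14.1 in ESC. Continued regions on placed chromosomes in fewer than 24 of the other libraries stayed between 86.6% ± 8.09 in ESC and 96.1% ± 2.48 in 8-cell embryos, with 94.1% ± 2.00 in morula. The unplaced share was below the placed one in 3 of 3 libraries of each of 8-cell embryos, morula, ICM and ESC, an order that was not tested further. Oocyte regions on unplaced scaffolds that did not continue had a peak in 38.8% ± 6.52 of cases in morula and 32.5% ± 14.7 in ESC, against 70.6% ± 5.31 and 55.8% ± 13.9 of the placed ones that did not continue.

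Other embryos of the same stage, set aside for α-amanitin from the collections that gave the control embryos, gave a further reading of the 2-cell regions. Of the 677, 44.2%, 75.2% and 82.9% had a peak in the 3 libraries of 2-cell TBE, whose embryos were grown with α-amanitin (67.4% ± 20.5, mean ± SD, n = 3). Regions in all 3 control 2-cell libraries were met in 86.6% ± 6.99 and those in 2 libraries in 55.7% ± 28.8. Continued regions were met in 45.9%, 78.4% and 86.7%, and of the 20 regions without an oocyte peak 3, 8 and 4 were met. The 2-cell TBE lists held 925, 8118 and 11083 peaks, and the lowest shares of continued regions belong to the shortest list.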

How the data were processed

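ATAC-seq peak lists of 3 GV oocyte and 3 control 2-cell libraries were used, with 24 lists of other groups as readout and to class regions by recurrence. Reads were trimmed by the authors and mapped with BWA to the ARS-UCD1.2 assembly. After PCR duplicates, mitochondrial reads and poor alignments had been discarded, MACS2 was run in broad mode with a q limit of 0.05 and tags extended to 200 bp. The submitters' processing notes list BWA 0.7.17, SAMtools 1.7 and MACS2 2.1.1. The study's methods describe merged and subsampled reads, whereas each deposited list belongs to 1 replicate. Fold enrichment (a ratio), −log10 p and −log10 q were deposited by the authors as means over each peak. Read totals were not used here, so a background level was inferred from peaks whose pileup is a whole number (tolerance 0.0001 on −log10 p, at least 3 peaks). Precision is limited by 3 libraries a stage and by that depth.

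Peaks were intersected by at least 1 bp in Python 3.11.15 with numpy 2.4.6, pandas 2.3.3 and scipy 1.17.1, and figures were drawn with matplotlib 3.10.9. Regions needed peaks in 2 of 3 libraries. Differences between stages were tested with exact two-sided permutation tests over libraries, and were called where the values of the stages did not overlap. For the likeness of lists the test counted only relabellings with an equal or larger difference within minus between stages. Regions named were the 10 strongest in all 2-cell libraries, the first 5 without an oocyte peak, the 5 strongest oocyte regions without a 2-cell peak and the 5 widest in all 6 libraries, of which only placed ones were named. The comparison, the region classes and this rule were chosen with earlier results of these data known. Tests on simulated data gave 0 mismatches in 200 interval trials, and 4 of 4 background levels and 20 of 20 planted lists recovered. Libraries shared at most 14 peaks with identical ends, so none was counted as deposited more than once.

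Start sites, genes, marker genes of the labelled cells and motifs were not analysed here, since no genome or annotation of ARS-UCD1.2 was at hand. Alternatives were stricter peak limits, autosomes only, equal numbers of top peaks, a 50% overlap, regions from any or all 3 replicates, the overlap coefficient, each replicate left out and a replicate block.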

Additional observations from a re-analysis of the deposited data

How the results depend on the processing

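Of 215 values recomputed under the alternatives, 181 stayed on the same side of their limit or within the allowed range. A common limit on −log10 p, the removal of regions present in all 24 other libraries, and leaving out 4-cell or 2-cell TBE replicates were chosen after seeing the data.

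The numbers of 2-cell regions, of those on an oocyte region and of continued oocyte regions were 296, 262 and 263 with peaks limited to a −log10 q of 3 or more, 422, 401 and 401 on autosomes only, 431, 146 and 146 with equal numbers of top peaks, 7757, 4387 and 4374 with regions from any replicate, 256, 232 and 231 with regions from all 3 replicates, and 379, 326 and 325 with a −log10 p of 6 or more. Leaving out 1 replicate gave 282 to 677, 269 to 600 and 264 to 598, lowest without 2-cell replicate 3, and 397, 375 and 374 without 2-cell replicate 2. With equal numbers of top peaks 33.9% of 2-cell regions met an oocyte region, the ratio of covered length was 1.27 (exact permutation test, p = 0.2) and the difference in shares met was 2.30 points (p = 0.4, same exact test), and the difference at the 4-cell stage was 13.2 points.

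The difference in median fold enrichment was 0.750 at a −log10 q of 3 or more, −3.03 with equal numbers of top peaks (exact permutation tests, p = 0.1 each) and −0.0165 at a −log10 p of 6 or more (p = 1, same exact test), and without 1 replicate it ranged from 0.00856 to 0.360, the stages not overlapping without 2-cell replicate 3. At that limit on −log10 q the difference in median −log10 q was 0.756 (exact permutation test, p = 0.2), and the ratio of widths was 1.13 (exact sign-flip permutation test, p = 0.5). By the overlap coefficient the difference within minus between stages was −0.0885. The share of 2-cell regions with a 2-cell TBE peak was 20.9% with regions from any replicate. The cause of these changes was not tested.

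Leaving out 1 replicate gave a ratio of 12.8 to 47.4 for covered length and 11.0 to 37.5 for peaks, differences of −138 to −82.4 bp in width, −0.842 to −0.526 in −log10 q, 53.0 to 64.6 points in shares met, 11.3 to 18.9 points in unplaced shares and 0.138 to 0.273 in the Jaccard index, ratios of 1.33 to 1.44 in fold enrichment and 1.33 to 1.52 in width, 51.7 to 67.7 points at the 4-cell stage and 59.7% to 82.2% in 2-cell TBE. The labels do not say whether libraries of the same number share a collection, and the stages were not paired. Deviations from the stage means had correlations of −0.00338, 0.0125 and 0.0144 between libraries of the same number, over 33393 regions. Most of the oocyte regions had no peak in any 2-cell library, so these values cannot tell whether the libraries are paired. With a replicate block by number the ratio was 25.5 for covered length and 21.1 for peaks, as geometric means, and no stage difference changed its direction or its overlap. Alternatives for start sites and genes were not run.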
